A study of Mus musculus with 8 samples.

Results

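Microglia are the resident macrophages of the spinal cord, and monocytes that enter it after injury become macrophages that share many of their genes. A list of 39 genes used as markers of microglia and macrophages was followed in SOX9 CUT&Tag data, to ask whether SOX9 signal over immune genes was higher 1 day after a spinal cord injury. The 39 genes were taken by name from 21755 protein-coding genes on chromosomes 1 to 19 and X of the mouse genome (GENCODE M21 on GRCm38, the same assembly as mm10). The list was chosen with earlier results of these data known. All 39 symbols were found. For each gene a start window (1 kb to each side of the annotated 5′ end) and a gene window (the gene body and 5 kb to each side) were measured.

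In CUT&Tag, antibodies bound to a chromatin protein recruit a transposase that cuts out the DNA around it for sequencing. The study profiled SOX9, a transcription factor of astrocytes, in nuclei sorted by a DNA stain from wild-type mouse spinal cord, either uninjured or 1 day after a contusion (1 dpi). All groups came from C57BL/6 mice of 2 to 6 months with the label WT and no other treatment in the labels, and the tissue was a short segment around the injury, or the same level of an uninjured cord, freed of its meninges. For each condition there was a SOX9 library from a male (M) and a SOX9 library from a female (F) sample, and each had a control from a portion of its nuclei that received only the secondary antibody, which makes 8 libraries. Animals were pooled for sequencing in this study, so the 2 libraries of a condition measure the spread between samples that differ in sex, and the M samples of the 2 conditions are different animals, as are the F samples. With 2 libraries against 2, an exact two-sided permutation test cannot go below p = 0.33.

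The libraries differed in depth before any gene was considered. The SOX9 libraries held 1891276 (uninjured M), 7216730 (uninjured F), 2529356 (1 dpi M) and 2385009 (1 dpi F) fragments. Their mean coverage was 0.178, 0.590, 0.243 and 0.231 fragments per base in that order, and every value below is the coverage of a window divided by this mean, so that 1 is the genome-wide level of a library. A single fragment of typical length in a start window is worth about 0.563, 0.169, 0.411 and 0.433 on this scale, so a start value can rest on very few fragments. The uninjured F library also had the most concentrated signal, with 12.6% of it in the top 1% of 10-kb bins, against 8.87% in uninjured M, 11.6% in 1 dpi M and 9.71% in 1 dpi F. Coverage of chromosome Y relative to the autosomes was 0.310 and 0.173 in the M libraries and 0.0269 and 0.0392 in the F libraries, uninjured before 1 dpi, which matches the sex labels of the SOX9 libraries. In the controls the same ratio was 0.0553 and 0.0735 for M and 0.0600 and 0.0354 for F and did not separate the sexes.

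The control libraries were far smaller, with 22752 (uninjured M), 46846 (uninjured F), 52950 (1 dpi M) and 10906 (1 dpi F) fragments. Of the control fragments that overlapped no other, 93.5%, 82.3%, 86.0% and 91.4% had exactly the ends of a fragment in a SOX9 library, while at most 0.0428% did once positions were shifted by 1 kb. Between SOX9 libraries the share was 1.66% to 3.93%. The source of the shared fragments was not tested, and the controls are therefore shown as counts and were not subtracted. Over the 39 start windows they held 3, 2, 6 and 0 fragments, and over the 39 gene windows 15, 33, 49 and 13. Scaled to the library, the gene-window counts were 659 (95% exact Poisson interval 369 to 1087), 704 (485 to 989), 925 (685 to 1223) and 1192 (635 to 2038) fragments per 1000000 fragments of the library (FPM), intervals that cover counting error only and overlap one another. Both 1 dpi values were above both uninjured ones.

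Microglia arise from yolk sac progenitors, depend on signalling through the CSF1 receptor, and keep their identity through transcription factors such as PU.1, IRF8 and SALL1. They survey the cord with purinergic and chemokine receptors, clear debris and synapses with complement, Fc receptors and TREM2, and are joined after injury by monocytes that carry CCR2 and Ly6C. SOX9 in the adult cord is best known in astrocytes and ependymal cells, so the listed genes belong mainly to cells in which SOX9 is not a marker.

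As a group the member genes had low SOX9 coverage at their starts. The median start window stood at 1.06 in uninjured M, 2.003 in uninjured F, 2.115 in 1 dpi M and 2.148 in 1 dpi F. The corresponding medians of all coding genes were 2.82, 4.72, 3.64 and 3.28, and 32 of the 39 members lay below the all-gene median of mean start coverage. Of the 39 starts, those without any coverage numbered 8 in uninjured M, 1 in uninjured F, 2 in 1 dpi M and 1 in 1 dpi F. Over all coding genes the shares were 14.9%, 7.25%, 13.3% and 12.2% in that order. Empty starts were thus more common among the members only in uninjured M. Around the start, the mean profile of the members was highest from 0 to 500 bp downstream. It stood there at 2.91 and 4.26 in the uninjured libraries and 4.36 and 4.47 at 1 dpi, M before F, an order kept throughout. All coding genes reached 6.61, 12.5, 9.41 and 7.85 in the same interval. In uninjured M the members' mean was also 2.91 from 3500 to 4000 bp downstream, so that library had no peak confined to the start. Gene windows were flatter, with member medians of 1.09, 1.39, 1.51 and 1.24 beside all-gene medians of 1.48, 1.68, 1.57 and 1.55.

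**Figure D1:**
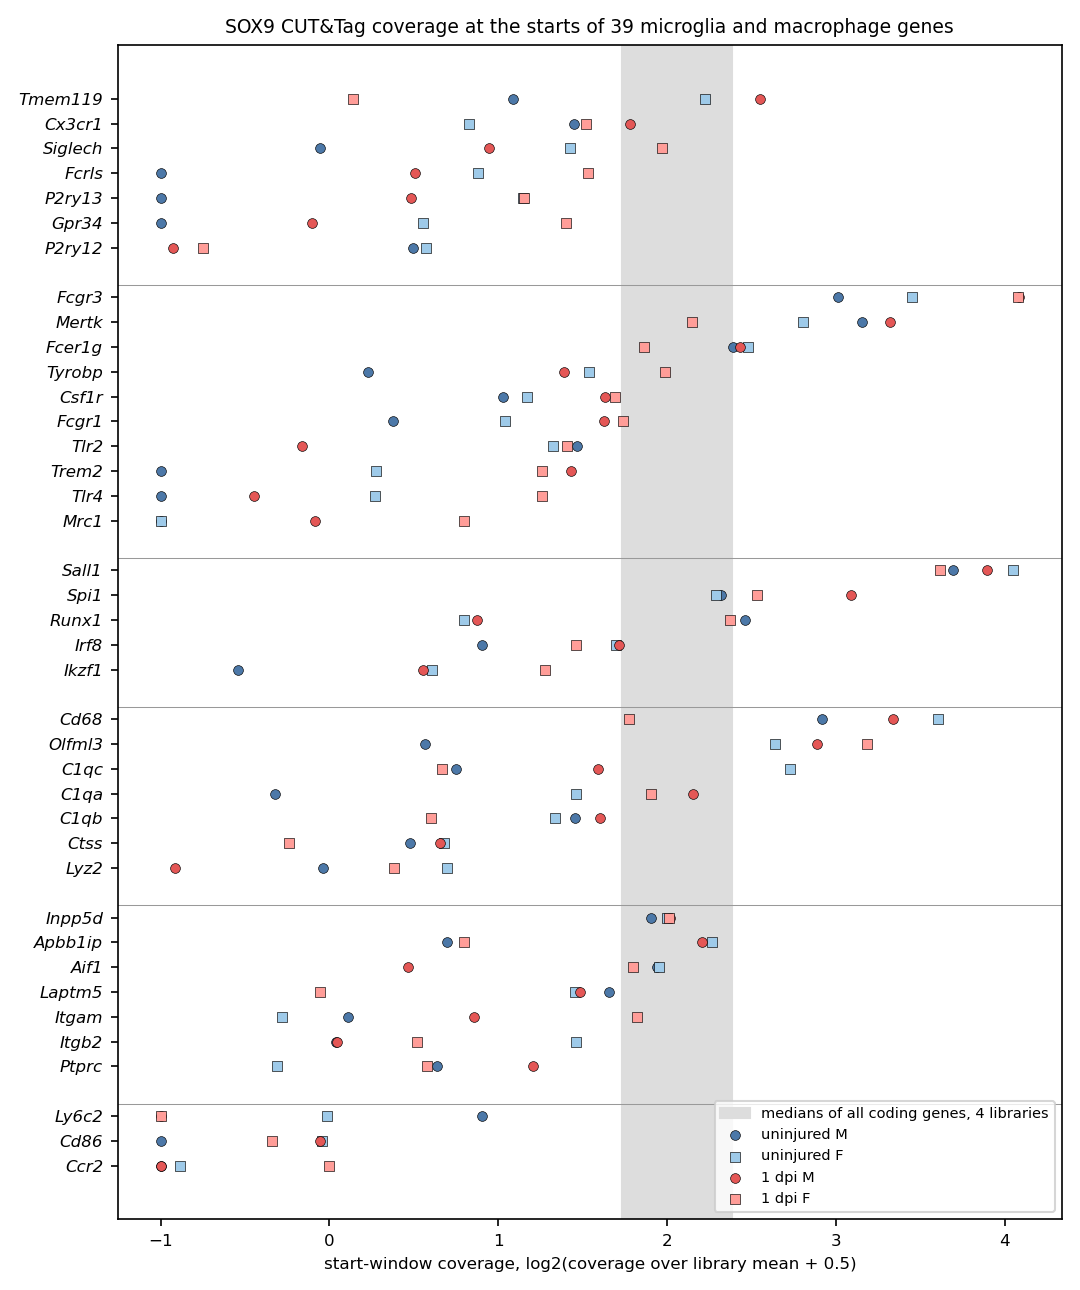
Start-window SOX9 coverage of the 39 members in each of the 4 SOX9 libraries, as log2(coverage over the library mean + 0.5) and grouped by role, with the range of the all-gene medians of the libraries as a grey band. Most points lie to the left of the band, Sall1 and Fcgr3 stand highest and Ccr2 lowest.

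No member passed the test for a change at 1 dpi. In start windows, limma on log2(coverage + 0.5) called 0 of 39 members at an adjusted p under 0.05, where 0 of all 21239 coding genes with coverage were called (0%). At an unadjusted p under 0.05 it gave 3 members higher (Trem2, Olfml3 and Mrc1) and 2 lower (Ly6c2 and P2ry12), beside 242 and 279 of all genes. Both 1 dpi libraries lay above both uninjured libraries at 11 of 39 starts, against 8.61% of all genes, and below them at 3 of 39, against 14.4%. The median log2 change of the members was 0.32, with 23 of 39 above 0 (59.0%), whereas the median over all genes was -0.06, with 45.2% above 0. In each sex taken alone the members' median was above 0, at 0.60 in M and 0.08 in F, while that of all genes was 0.31 in M and -0.45 in F. Mean start coverage of the members was 2.54 ± 0.632 uninjured and 2.98 ± 0.221 at 1 dpi (SD, n = 2 libraries each), a difference smaller than the uninjured spread.

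Library by library, the members' mean start coverage was 2.09 and 2.99 uninjured and 3.14 and 2.83 at 1 dpi, with uninjured M the one that stood apart. Counted as fragments, the 39 starts held 64.5 FPM in uninjured M (53.6 to 77.0), 90.8 in uninjured F (83.9 to 98.0), 92.9 in 1 dpi M (81.4 to 106) and 83.4 in 1 dpi F (72.2 to 95.9). In these counting intervals uninjured F overlapped both 1 dpi libraries, and uninjured M, the lowest, overlapped only 1 dpi F. Without uninjured M the members' median log2 change was 0.01 beside -0.42 for all genes, and 13 starts lay above and 12 below, beside 12.8% and 57.7% of all genes. Without uninjured F the medians were 0.49 and 0.29, and 22 starts lay above and 6 below, beside 46.1% and 23.0%. Without 1 dpi M, 19 starts lay above and 12 below, beside 20.5% and 31.5%, and without 1 dpi F, 16 and 5, beside 23.2% and 24.4%.

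Gene windows gave a smaller shift with the same sign. Here limma called 0 of 39 members at an adjusted p under 0.05 and 1 of 21755 coding genes (0.00460%), with 2 members higher (Trem2 and Itgam) and 1 lower (C1qb) at an unadjusted p under 0.05, beside 486 and 273 genes in all. The called gene, Gm11361 on chromosome 13, is not a member and was named after its values were seen: coverage was 0.265 and 0.244 uninjured and 1.52 and 3.06 at 1 dpi, a log2 change of 1.83 (SE 0.23, adjusted p = 0.0162). Trimmed mean scaling called 8 genes higher and 4 lower, and centring on the median gene called 0, in neither case a member. Both 1 dpi libraries lay above both uninjured libraries at 12 of 39 members, against 13% of all genes, and below at 2 of 39, against 13.4%. The members' median log2 change was 0.12, with 29 of 39 above 0 (74.4%), beside -0.02 and 46.1% for all genes. With each library left out in turn, which leaves 1 library against 2, 15 to 23 members lay above and 4 to 9 below, beside 24.2% to 41.4% and 26.0% to 46.9% of all genes. Mean coverage was 1.70 ± 0.222 uninjured and 1.81 ± 0.113 at 1 dpi (SD, n = 2), again a difference within the spread. By library it was 1.54 and 1.85 uninjured and 1.89 and 1.73 at 1 dpi, with overlap.

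Summed over the 39 gene windows, the share of fragments did not overlap between the conditions. It was 897 FPM in uninjured M (855 to 941) and 948 in uninjured F (926 to 971), against 1098 in 1 dpi M (1057 to 1139) and 1042 in 1 dpi F (1002 to 1084). The counting intervals of the conditions are also apart, although they leave out the variation between samples. In the controls, too, both 1 dpi values over these windows were above both uninjured ones, with overlapping intervals, from only 15, 33, 49 and 13 fragments. Most control fragments that overlapped no other had the ends of a SOX9 fragment, so the controls are not a separate measurement. Removing Cx3cr1, whose window is the largest contributor, left 714 and 737 uninjured and 844 and 815 at 1 dpi. For the 29 members whose gene window holds no other coding start, the values were 564 and 538 uninjured and 649 and 638 at 1 dpi. In bulk nuclei, more cells of a type and more signal per cell cannot be told apart.

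**Figure D2:**
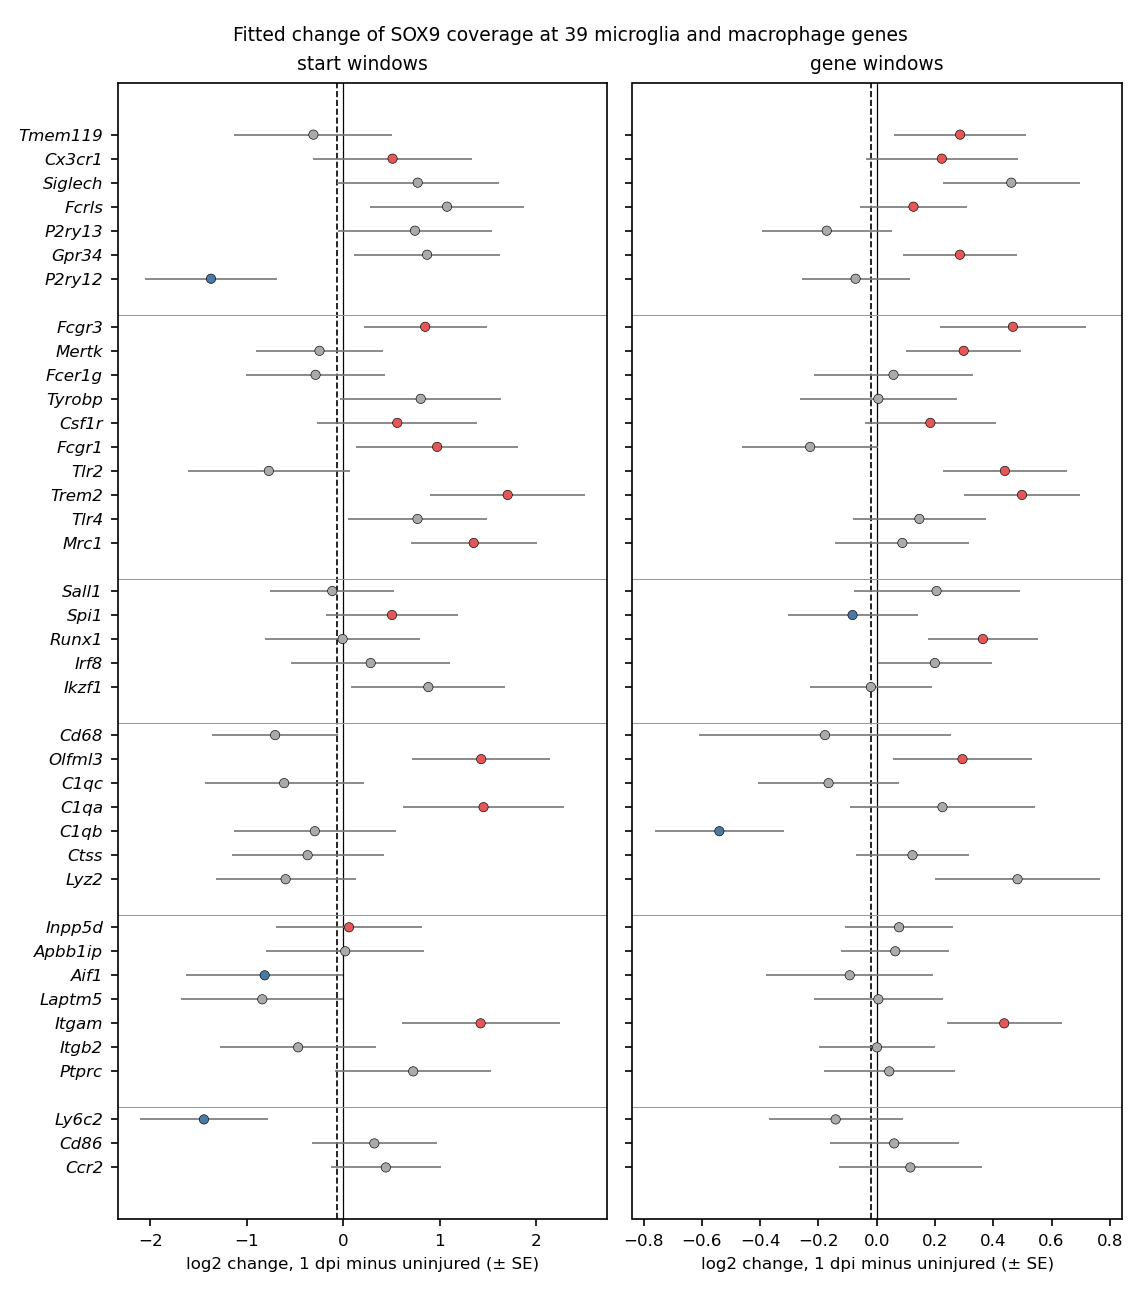
Fitted log2 change (1 dpi minus uninjured, on the log2(coverage + 0.5) scale, bars SE) of each member in start windows and gene windows, ordered by role, with the median of all coding genes dashed. Red marks the 11 starts and 12 gene windows with both 1 dpi libraries above both uninjured libraries, blue the 3 and 2 below, and none passed the adjusted threshold.

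A list of 47 further microglia and macrophage genes, none of them members, was also written with earlier results of these data known. It was read in the same 4 SOX9 libraries and is not an independent check. These 47 genes gave values of the same sign as the members. The list includes Ccl2, which the paper reports as upregulated in astrocytes after injury, so it is not limited to genes of these cells. Its gene windows held 1145 and 1197 FPM uninjured and 1296 and 1298 at 1 dpi. Of the 47 log2 changes, 34 were above 0, with a median of 0.07. There, 10 genes lay above and 4 below, beside 13% and 13.4% of all genes. Mean coverage of these gene windows overlapped, at 1.52 and 1.79 uninjured and 1.90 and 1.78 at 1 dpi. The starts of the 47 genes gave 12 above and 3 below, beside 8.61% and 14.4%, a median of 0.07, and 27 of 47 above 0. In fragments those starts overlapped between conditions, at 103 and 137 FPM uninjured and 136 and 122 at 1 dpi. Neutrophil genes showed no such separation, with 137 and 159 FPM uninjured and 153 and 127 at 1 dpi over 15 gene windows. Genes of T and B lymphocytes held 271 and 295 uninjured and 265 and 268 at 1 dpi, over 15 genes. Here both 1 dpi libraries were below both uninjured ones, with overlapping counting intervals. At the lymphocyte starts both 1 dpi libraries were above both uninjured ones, at 12.2 and 14.4 FPM uninjured and 15.4 and 16.8 at 1 dpi, with overlapping counting intervals. None of the 7 comparison lists had a gene past the adjusted threshold in limma in either window.

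Lists for the other cells of the cord differed in direction, and their part in the members' values was not tested. Over 20 astrocyte genes the gene windows held 769 and 804 FPM uninjured and 903 and 810 at 1 dpi, also without overlap, although the F libraries differed little. Mean coverage of these windows overlapped, at 2.67 and 3.13 uninjured and 3.33 and 2.87 at 1 dpi. Of these 20 genes, 7 lay above and 1 below, beside 13% and 13.4% of all genes, and 16 log2 changes were above 0, with a median of 0.11. At their starts 3 lay above and 3 below, beside 8.61% and 14.4% of all genes. The median there was 0.09, with -0.44 in F alone. Fragments of these starts overlapped, at 90.9 and 114 FPM uninjured and 119 and 88.1 at 1 dpi. Neuronal genes held 1364 and 1832 uninjured and 1443 and 1265 at 1 dpi over 16 genes, and 8 of the 16 had both 1 dpi libraries below both uninjured ones, against 13.4% of all genes. Oligodendrocyte genes held 1071 and 1533 uninjured and 1320 and 1131 at 1 dpi. Endothelial genes held 385 and 265 uninjured and 313 and 330 at 1 dpi, so that both 1 dpi libraries lay between the uninjured ones, whereas at their starts both were above, at 13.7 and 15.0 uninjured and 17.0 and 15.9 at 1 dpi, with overlapping counting intervals. In the gene windows of these last 3 lists and in the share of all coding genes (764800, 909120, 836810 and 793310 FPM), uninjured F stood at an extreme, the highest for the first pair and for all genes and the lowest for endothelial genes.

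**Figure D3:**
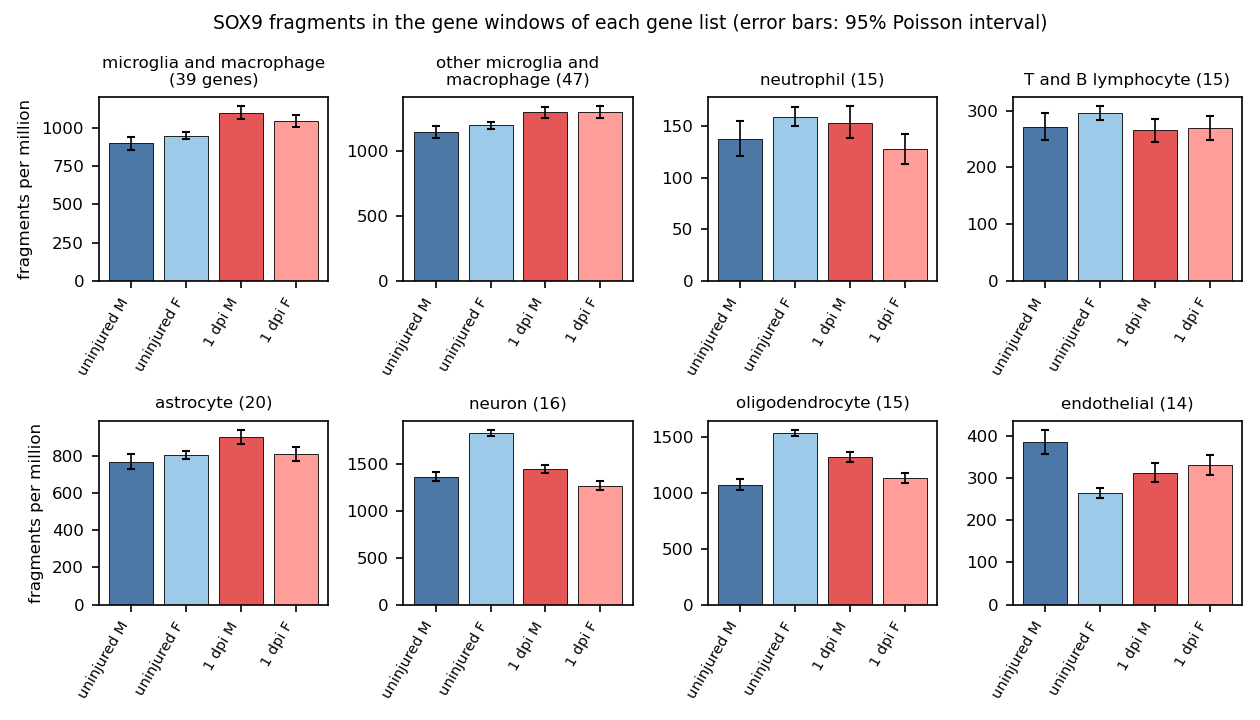
Fragments per 1000000 (FPM) of each SOX9 library over the gene windows of the members and the comparison lists, with 95% exact Poisson intervals as error bars. The members and the 47 further microglia and macrophage genes have both 1 dpi libraries above both uninjured libraries, as do the astrocyte genes, while the neutrophil, lymphocyte and endothelial lists do not.

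Among the surface receptors of resident microglia (Cx3cr1, P2ry12, P2ry13, Tmem119, Siglech, Gpr34 and Fcrls), 5 of 7 starts had a log2 change above 0, with a median of 0.74. Only 1 start had both 1 dpi libraries above both uninjured ones, and 1 had both below, beside 8.61% and 14.4% of all genes. In gene windows 4 of 7 lay above and 0 below, beside 13% and 13.4%, with a median of 0.22. Mean start coverage of the group was 0.746 and 1.81 uninjured and 1.71 and 1.82 at 1 dpi, so that here too uninjured M was the library that stood apart.

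Cx3cr1 encodes the fractalkine receptor, which microglia use to sense neurons. Its start window had coverage of 2.23 and 1.27 uninjured and 2.93 and 2.37 at 1 dpi, from 4, 7, 5 and 8 fragments. Both 1 dpi values were the higher ones, by a log2 change of 0.51 (SE 0.83, limma unadjusted p = 0.537), which was 0.82 without uninjured M, 0.20 without uninjured F, 0.32 after thinning, -0.28 with 500 bp to each side and 1.16 at the best covered coding start. Its gene window (gene at chr9:119901616-120069879, minus strand) gave 2.99 and 3.35 uninjured and 3.88 and 3.68 at 1 dpi, again without overlap, by 0.22 (SE 0.26). The M21 model of Cx3cr1 runs over the starts of 4 other coding genes, Gorasp1, Ttc21a, Csrnp1 and Xirp1. Its highest 1-kb tile, chr9:120011001-120012000 in an intron of the model, had 9.69 and 27.9 uninjured and 41.9 and 22.9 at 1 dpi, so the tile's values overlapped between conditions.

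Tmem119, a membrane protein used to tell microglia from incoming macrophages, differed most between the sexes at its start. Coverage there was 1.62 and 4.17 uninjured and 5.36 and 0.601 at 1 dpi, from 3, 19, 10 and 1 fragments. The 1 dpi libraries were therefore the highest and the lowest of the 4, and the log2 change of -0.31 (SE 0.82) has no common direction behind it. The gene window (gene at chr5:113793729-113800516, minus strand) was steadier, at 2.05 and 2.19 uninjured and 2.94 and 2.46 at 1 dpi, a log2 change of 0.29 (SE 0.23) without overlap, and 0.18 without 1 dpi M.

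P2ry12, the ADP receptor that guides microglial processes to damage, was the receptor whose start ran the other way. Its start window held 0.911 and 0.988 uninjured and 0.0267 and 0.0952 at 1 dpi. These values rest on 1 and 7 fragments uninjured and on 1 and 1 at 1 dpi, and the fitted log2 change of -1.37 (SE 0.69, limma unadjusted p = 0.0467, adjusted p = 1.00) depends on the pseudocount. Taken at the coding start with the highest coverage instead of the gene's 5′ end, the log2 change was 1.53. Over the gene window (gene at chr3:59216272-59262871, minus strand) P2ry12 read 1.14 and 1.04 uninjured and 1.15 and 0.886 at 1 dpi, with overlap. The gene window of P2ry13 overlaps that of P2ry12, so these neighbours are not separate measurements.

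The 10 growth factor, phagocytic and pattern receptors with their adaptors (Csf1r, Trem2, Tyrobp, Mertk, Tlr2, Tlr4, Mrc1, Fcgr1, Fcgr3 and Fcer1g) had the largest median log2 change of the 6 role groups at starts, but not in gene windows. At their starts 7 of 10 log2 changes were above 0, the median was 0.79, and 5 had both 1 dpi libraries above both uninjured ones with 0 below, beside 8.61% and 14.4% of all genes. Mean start coverage was 2.59 and 3.11 uninjured and 4.14 and 3.96 at 1 dpi, or 2.85 ± 0.365 and 4.05 ± 0.128 (SD, n = 2), a difference larger than either spread. In gene windows 9 of 10 log2 changes were above 0, with a median of 0.17 and again 5 above and 0 below, beside 13% and 13.4%. In fragments, the gene windows gave 188 and 182 FPM uninjured and 223 and 229 at 1 dpi, and the counting intervals of uninjured M and 1 dpi M overlapped. The group was not tested as a group, and none of its genes passed the adjusted threshold in limma.

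Fcgr3, a low-affinity receptor for immunoglobulin G, carried much of that mean. Its annotated start (gene at chr1:171051174-171064935, minus strand) had coverage of 7.56 and 10.4 uninjured and 16.5 and 16.4 at 1 dpi, from 7, 58, 33 and 28 fragments. Both 1 dpi libraries were above both uninjured ones, with 8.99 ± 2.02 against 16.4 ± 0.0734 (SD, n = 2) and a log2 change of 0.85 (SE 0.64, limma unadjusted p = 0.183, adjusted p = 1.00). The gene window followed, at 2.79 and 2.24 uninjured and 3.58 and 3.73 at 1 dpi, a log2 change of 0.47 (SE 0.25, unadjusted p = 0.0806). This start belongs to 1 of the 3 coding transcripts of the gene and lies in CpG-rich sequence. The start shared by the other 2, which lies 5532 bp downstream at position 171059403, had only 0.670 and 0.608 uninjured and 0.0802 and 1.18 at 1 dpi, from 1, 5, 1 and 2 fragments.

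**Figure D4:**
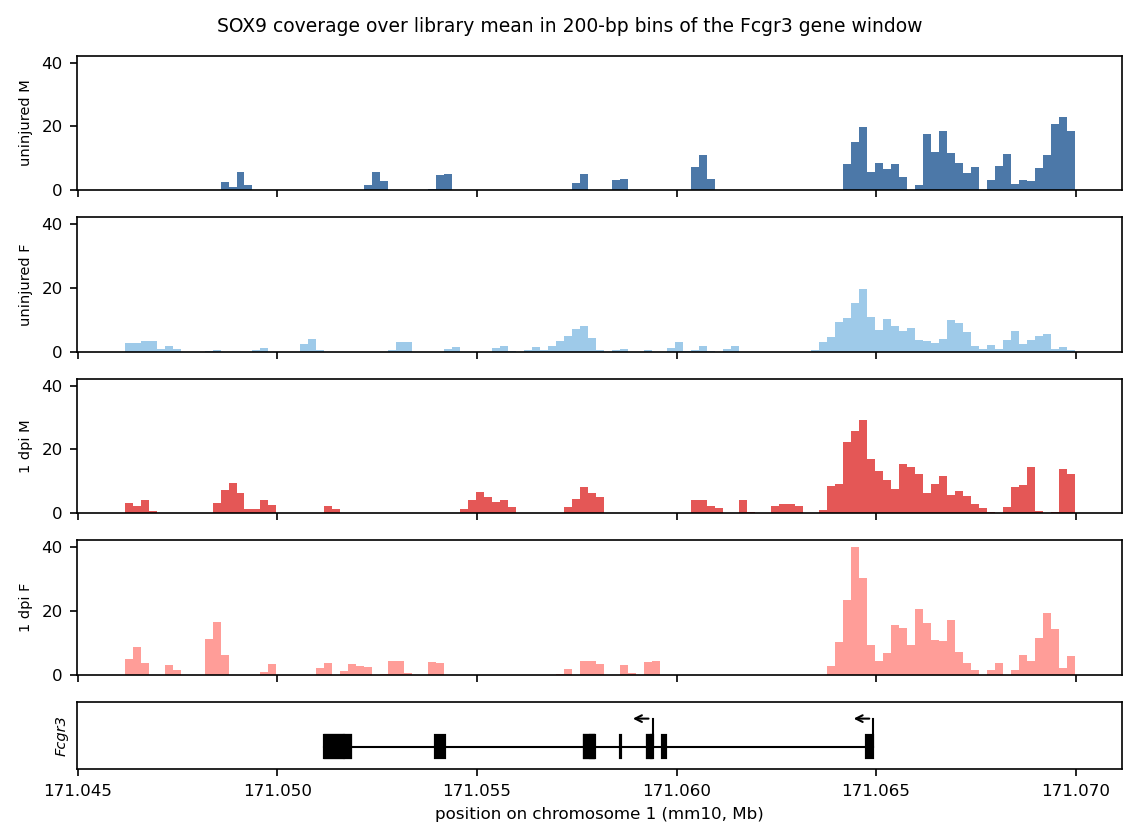
SOX9 coverage (over the library mean, in bins) along the Fcgr3 gene window on chromosome 1 of mm10 in the 4 SOX9 libraries, with exons as boxes and the coding starts as arrows. The highest bin lies beside the upstream start in 3 libraries and in the flank beyond it in uninjured M, and coverage is low at the other start, 5532 bp away.

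Trem2, a lipid-sensing receptor of phagocytes, had the largest log2 change among starts whose conditions did not overlap. Coverage at its start (gene at chr17:48346401-48354147, plus strand) was 0 and 0.708 uninjured and 2.195 and 1.888 at 1 dpi. The counts behind these values were 0, 5, 3 and 3 fragments, so the log2 change of 1.71 (SE 0.80, limma unadjusted p = 0.0333, adjusted p = 1.00) rests on 11 fragments in all. It was 1.07 without uninjured M and 0.57 with 500 bp to each side, where Itgam had 1.62 and 1.41. At a pseudocount of 2 it was below Olfml3 (0.80 against 1.01), and at 0.1 below Mrc1, which had 3 fragments in all. The gene window of Trem2 showed the same order with more fragments (8, 31, 23 and 15), at 0.784 and 0.652 uninjured and 1.51 and 0.968 at 1 dpi. That is a log2 change of 0.50 (SE 0.20, limma unadjusted p = 0.0235), with an adjusted p of 1.00, and 0.27 without 1 dpi M.

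Csf1r, the receptor for CSF1 and IL-34 on which microglia depend, lies on chromosome 18. Its start had 1.54 and 1.75 uninjured and 2.59 and 2.73 at 1 dpi, from 3, 8, 5 and 8 fragments, a log2 change of 0.56 (SE 0.83), or 0.24 at the best covered coding start and 1.00 with 500 bp to each side. The gene window read 2.28 and 2.29 uninjured and 2.60 and 2.72 at 1 dpi, by 0.18 (SE 0.23), or 0.35 after thinning. In both windows the 1 dpi libraries lay above the uninjured ones and close to each other, and in neither did limma give an unadjusted p under 0.05 (0.499 and 0.426).

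Mertk, a receptor tyrosine kinase for the uptake of dying cells, was high at its start, where the conditions overlapped. That window (gene at chr2:128698956-128802894, plus strand) stood at 8.39 and 6.50 uninjured and 9.49 and 3.93 at 1 dpi, a log2 change of -0.25 (SE 0.66). Its gene window did not overlap, though only just, at 1.158 and 0.921 uninjured and 1.648 and 1.159 at 1 dpi, by 0.30 (SE 0.20). Tlr2, a receptor for bacterial lipoproteins, was chosen for its gene window (gene at chr3:83836272-83841767, minus strand), which had 0.501 and 0.599 uninjured and 0.673 and 1.23 at 1 dpi, by 0.44 (SE 0.21, limma unadjusted p = 0.0549), or 0.72 without 1 dpi M, 0.16 without 1 dpi F, 0.17 without flanks and 0.77 without start windows. At the start itself Tlr2 ran the other way in M, with 2.26 and 2.003 uninjured and 0.395 and 2.15 at 1 dpi. Mrc1, the mannose receptor of border macrophages (chr2:14229392-14332057, plus strand), had 0 and 0 at its start uninjured and 0.442 and 1.24 at 1 dpi, from 0, 0, 1 and 2 fragments, too few for a fold. Its gene window, with 225 fragments, read 0.559 and 0.271 uninjured and 0.417 and 0.505 at 1 dpi and overlapped.

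The 5 transcription factors (Sall1, Spi1, Irf8, Ikzf1 and Runx1) had the highest mean start coverage of the role groups, at 4.70 and 5.09 uninjured and 5.49 and 5.18 at 1 dpi. Their median log2 change was 0.29 at starts, with 1 above and 0 below (8.61% and 14.4% of all genes), and 0.20 in gene windows, with 1 above and 1 below (13% and 13.4%).

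Sall1, a zinc finger factor that maintains microglial identity but is expressed in other neural cells as well, had the highest start of all members. Coverage there was 12.43 and 16.03 uninjured and 14.4 and 11.8 at 1 dpi, from 19, 93, 32 and 24 fragments. The conditions overlapped, with 14.2 ± 2.55 against 13.1 ± 1.82 (SD, n = 2) and a log2 change of -0.11 (SE 0.64). The highest 1-kb tile of its gene window, chr8:89043001-89044000, centred 662 bp downstream of the start, had 24.7 and 32.4 uninjured and 23.2 and 23.9 at 1 dpi. Over the gene window (gene at chr8:89027235-89044162, minus strand) values were 3.58 and 3.76 uninjured and 4.93 and 3.76 at 1 dpi.

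Spi1 encodes PU.1, the factor that specifies the myeloid lineage. Its start (gene at chr2:91082390-91115756, plus strand) had 4.48 and 4.40 uninjured and 8.02 and 5.28 at 1 dpi, from 5, 24, 15 and 6 fragments. Both 1 dpi values were higher, by a log2 change of 0.51 (SE 0.68), which was 0.23 without 1 dpi M and 0.79 without 1 dpi F. Its gene window pointed the opposite way, at 2.52 and 2.48 uninjured and 2.40 and 2.27 at 1 dpi, also without overlap (log2 change -0.08, SE 0.22). The window includes the start of the neighbouring gene Mybpc3.

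Complement, lysosomal and secreted proteins (C1qa, C1qb, C1qc, Ctss, Cd68, Lyz2 and Olfml3) had the lowest median log2 change of the 6 role groups at starts. Only 2 of 7 log2 changes were above 0 and the median was -0.37, yet those 2 genes, Olfml3 and C1qa, had no overlap between conditions, both with 1 dpi above, as 8.61% of all genes had. In gene windows the median was 0.12, with 1 above and 1 below, beside 13% and 13.4%. Mean start coverage of the group was 1.87 and 4.29 uninjured and 3.80 and 2.57 at 1 dpi, with both 1 dpi libraries between the uninjured ones.

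Olfml3, a secreted protein enriched in microglia, had start coverage of 0.979 and 5.73 uninjured and 6.89 and 8.57 at 1 dpi, from 3, 29, 9 and 13 fragments. The log2 change was 1.43 (SE 0.71, limma unadjusted p = 0.0450, adjusted p = 1.00), but 0.39 without uninjured M, 2.47 without uninjured F and 0.34 with 2 kb to each side. The gene (chr3:103722222-103738001, minus strand) has the start of Gm10964 in its window, where coverage was 2.03 and 2.67 uninjured and 2.78 and 3.18 at 1 dpi. C1qa, a chain of the first complement component, had 0.301 and 2.25 uninjured and 3.94 and 3.24 at 1 dpi at its start, from 1, 10, 6 and 4 fragments. Its log2 change was 1.46 (SE 0.84, limma unadjusted p = 0.0814), but 0.56 without uninjured M and 2.35 without uninjured F. Its gene window overlapped, at 0.677 and 2.57 uninjured and 2.02 and 1.46 at 1 dpi, a log2 change of 0.23 (SE 0.32) with 1.1 in M and -0.65 in F. C1qb, a second chain of the same protein, was lower at 1 dpi in its gene window (gene at chr4:136880129-136886187, minus strand), at 2.132 and 1.48 uninjured and 1.40 and 0.798 at 1 dpi. There the log2 change was -0.54 (SE 0.22, limma unadjusted p = 0.0271, adjusted p = 1.00), and -0.34 without uninjured M, -0.82 without 1 dpi M and -0.26 without 1 dpi F. C1qa (chr4:136895917-136898803, minus strand), C1qb and C1qc lie side by side and their gene windows overlap, so these windows share sequence.

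Cd68, a lysosomal glycoprotein of macrophages, had 7.05 and 11.7 at its start uninjured and 9.59 and 2.92 at 1 dpi, from 10, 63, 17 and 6 fragments. The conditions overlapped, with 1 dpi F the lowest and a log2 change of -0.71 (SE 0.65). It was the highest member by gene window (gene at chr11:69664213-69666153, minus strand), at 7.42 and 12.6 uninjured and 9.22 and 7.85 at 1 dpi. That level is not its own alone, because the highest tile, chr11:69662001-69663000, lies outside Cd68 at the start of Mpdu1, with 35.2 and 48.0 uninjured and 33.6 and 27.3 at 1 dpi.

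Integrins, adaptors and pan-leukocyte proteins (Itgam, Itgb2, Aif1, Ptprc, Laptm5, Inpp5d and Apbb1ip) had a median log2 change of 0.02 at starts, with 2 above and 1 below, beside 8.61% and 14.4% of all genes. In gene windows the median was 0.04 and 6 of 7 changes were above 0, with 1 gene above and 0 below, beside 13% and 13.4%. The fragments of these gene windows stood at 186 and 184 FPM uninjured and 202 and 207 at 1 dpi, with overlapping counting intervals, and mean coverage overlapped, at 1.54 and 1.60 uninjured and 1.62 and 1.58 at 1 dpi. At starts the fragments ran the other way, with 12.2 and 13.2 FPM uninjured and 11.9 and 11.3 at 1 dpi.

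Itgam encodes CD11b, the integrin chain of microglia and other myeloid cells. At its start (gene at chr7:128062640-128118491, plus strand) coverage was 0.580 and 0.324 uninjured and 1.31 and 3.04 at 1 dpi, from 1, 3, 3 and 4 fragments, a log2 change of 1.43 (SE 0.82), or 0.94 without 1 dpi F. The start of Gm49368 falls in the same start window, the only such case among the members. Its gene window held 23, 103, 65 and 50 fragments and read 0.503 and 0.578 uninjured and 1.09 and 0.748 at 1 dpi, by 0.44 (SE 0.20, limma unadjusted p = 0.0419, adjusted p = 1.00), or 0.26 without 1 dpi M and 0.23 without flanks. Itgam and Trem2 were thus the members with both 1 dpi libraries higher and an unadjusted p under 0.05 in gene windows.

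Aif1, which encodes IBA1, had 3.34 and 3.36 at its start uninjured and 0.878 and 2.97 at 1 dpi, from 7, 20, 2 and 6 fragments. Both 1 dpi values were lower, by little in F, with a log2 change of -0.82 (SE 0.82). That change was -0.06 after thinning to the smallest library, -0.08 with 500 bp to each side, -0.08 at the best covered coding start, -0.15 without 1 dpi M and -1.48 without 1 dpi F. Its gene window (gene at chr17:35170991-35176068, minus strand) overlapped, at 3.54 and 4.84 uninjured and 3.85 and 3.86 at 1 dpi. Ptprc, the CD45 phosphatase of all leukocytes (chr1:138062861-138175708, minus strand), had 1.06 and 0.308 uninjured and 1.80 and 0.995 at 1 dpi at its start, with a log2 change of 0.73 (SE 0.81) and overlap. Without uninjured M it was 1.2, without uninjured F 0.25 and without 1 dpi M 0.41. Its gene window stood well below the library mean everywhere, at 0.515 and 0.310 uninjured and 0.384 and 0.487 at 1 dpi.

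The 3 monocyte and activation markers had the lowest coverage of all role groups. Ccr2, the chemokine receptor of inflammatory monocytes (chr9:124101950-124113557, plus strand), had 0 and 0.0415 at its start uninjured and 0 and 0.4997 at 1 dpi, from 0, 1, 0 and 1 fragments. No fold can be given for it, and its gene window, with 31 fragments, read 0.359 and 0.182 uninjured and 0.355 and 0.303 at 1 dpi. Ly6c2, a surface antigen of the same monocytes (chr15:75108158-75111970, minus strand), had 1.37 and 0.490 at its start uninjured and 0 and 0 at 1 dpi, from 2, 3, 0 and 0 fragments. Cd86, a costimulatory ligand (chr16:36603869-36666081, minus strand), had 0 and 0.469 uninjured and 0.460 and 0.290 at 1 dpi, from 0, 3, 2 and 1 fragments. Of these 3 starts only Ly6c2 had an unadjusted p under 0.05 in limma (0.0295, adjusted p = 1.00), and it rests on 5 fragments in all. The Mrc1 and Ly6c2 changes enter the members' median only by their sign, so that median does not depend on the size fitted to them.

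The place of the signal within the gene windows varied among the members. The highest 1-kb tile lay at the gene's own start in 10 members, in an exon in 6, in an intron in 12 and in the flank in 11. Another coding start fell in the gene window of 10 members, and 5 members overlapped the window of another member. With the 29 members free of other starts, a set defined after the data were seen, the median log2 change was 0.29 at starts (6 above, 3 below; all genes 8.61% and 14.4%) and 0.12 in gene windows (9 above, 1 below; all genes 13% and 13.4%).

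CpG-rich starts, defined by an observed over expected CpG ratio of at least 0.6 and a GC content of at least 50%, were rare among the members. Only 4 of 39 were CpG-rich (Sall1, Fcgr3, Irf8 and Ikzf1; 10.3%), against 30.02% of all coding genes. Their mean start coverage was 5.39 and 7.55 uninjured and 8.64 and 8.08 at 1 dpi. Across genes, which are not independent replicates and share the same libraries, Spearman's rho of this ratio with mean start coverage was 0.718 over 21755 coding genes and 0.235 over the 39 members. The 35 members with CpG-poor starts had medians of 0.979, 1.75, 1.80 and 2.137, beside 1.70, 2.17, 1.94 and 1.90 for all genes with CpG-poor starts. Relative to such genes the members were lowest in uninjured M. The median log2 change at starts was 0.32 for these 35 members and -0.05 for all genes with CpG-poor starts. By sex it was 0.56 against 0.14 in M and 0.08 against -0.29 in F. Of the 35 starts, 10 lay above and 3 below, beside 10.4% and 14.5% of the 15224 genes with CpG-poor starts.

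RefSeq promoters (250 bases before to 50 after a start, GRCm38.p6) were matched by symbol for 30 of the 39 members, with 38 promoters, and not for Tmem119, Csf1r, Itgb2, Gpr34, Tyrobp, C1qa, Spi1, Cd86 and Tlr4. The SOX core ACAATG, searched on both strands, was found in 3 of the 38 (7.89%; Cd68, Ctss and P2ry12), against 12.6% of all 32851 promoters. The AP-1 site TGAGTCA or TGACTCA was found in 1 (2.63%; Cd68), against 5.2%. The PU.1 site GAGGAAGT was found in 6 (15.8%; Apbb1ip, C1qc, Ctss, Inpp5d and Ly6c2), against 3.2%, and the C/EBP site TTGCGCAA in 0, against 0.183%. A match is a description of letters and not a bound site.

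The promoters of the 2 members with the highest start coverage and of Trem2, with the largest log2 change without overlap at the pseudocount of 0.5, are printed 5′ to 3′ to show where signal did and did not lie. None of the 4 motifs matched in them, so no base is in capitals. The Sall1 promoter is chr8:89044113-89044412 on the minus strand, and these 300 bases had 0.450 and 5.52 uninjured and 13.6 and 0.173 at 1 dpi, below the tile just downstream in each of the 4 libraries. The Fcgr3 promoter in the table, chr1:171059354-171059653 on the minus strand, is that of the downstream start and had 0 and 0 uninjured and 0 and 3.09 at 1 dpi, from 1 fragment. The Trem2 promoter, chr17:48346151-48346450 on the plus strand, had 0 and 1.63 uninjured and 0 and 1.69 at 1 dpi, from 5 fragments, so its values overlapped where those of the wider start window did not.
Sall1: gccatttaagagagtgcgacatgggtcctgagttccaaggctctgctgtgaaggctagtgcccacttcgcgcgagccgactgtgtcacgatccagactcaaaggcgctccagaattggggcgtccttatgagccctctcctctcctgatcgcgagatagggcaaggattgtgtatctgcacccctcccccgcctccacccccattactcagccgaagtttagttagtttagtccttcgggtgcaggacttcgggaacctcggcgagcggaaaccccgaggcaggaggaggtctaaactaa
Fcgr3: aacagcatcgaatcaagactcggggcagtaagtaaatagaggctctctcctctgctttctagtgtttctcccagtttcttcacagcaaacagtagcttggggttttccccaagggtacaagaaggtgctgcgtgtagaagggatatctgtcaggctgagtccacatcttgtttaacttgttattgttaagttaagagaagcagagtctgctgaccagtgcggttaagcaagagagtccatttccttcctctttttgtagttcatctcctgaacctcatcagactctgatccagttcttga
Trem2: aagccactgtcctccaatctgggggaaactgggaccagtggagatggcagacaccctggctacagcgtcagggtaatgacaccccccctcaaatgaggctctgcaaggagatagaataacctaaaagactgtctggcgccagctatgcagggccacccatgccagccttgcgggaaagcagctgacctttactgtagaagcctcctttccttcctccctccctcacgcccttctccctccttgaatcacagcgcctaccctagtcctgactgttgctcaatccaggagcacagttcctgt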

How the data were processed

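The deposited signal is coverage in whole numbers, unscaled, for 8 libraries in a single list. Per the labels and methods, the authors demultiplexed with deML, aligned to mm10 with Bowtie2 2.5.4, removed duplicates with Picard 3.4.0 and called peaks with SEACR 1.3, whose peaks are not used here. Groups came from the labels. Each rise in coverage was counted as a fragment, and starts were joined to ends in sequence, which may not restore the original pairs. Window coverage was divided by the library's mean over chromosomes 1 to 19, X and Y. The 4 SOX9 libraries were fitted with limma 3.58.1 (R 4.3.3) with a mean-variance trend on log2(coverage + 0.5), over all coding genes (GENCODE M21), with Benjamini-Hochberg adjustment. Changes on this scale are understated for low genes. The fit was tested on simulated data with large changes in genes above the median coverage, a level that most members' starts do not reach. Poisson intervals cover counting error only.

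The members and lists were chosen with earlier results of these data known. Named genes were the 6 highest and 3 lowest starts, up to 4 in each direction with the largest change and no overlap between conditions, for start and gene windows, and Cx3cr1, Tmem119, Csf1r, Spi1, Ccr2 and Ptprc. Alternatives covered scaling, pseudocount, filter, depth, windows, the starts used, controls in the fit, a block for sex and each library left out.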

Additional observations from a re-analysis of the deposited data

Results flagged for a closer look

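Several values pointed one way in the M libraries and the other way in the F libraries. This difference was not tested, since each sex gave 1 library a condition, and the uninjured libraries of the sexes differ in depth by more than the 1 dpi libraries do. Over all coding genes the median log2 change (1 dpi minus uninjured) was 0.31 in M and -0.45 in F at starts, and 0.06 in M and -0.08 in F in gene windows, so the direction differed across the genome. The complement, lysosomal and secreted group followed it, with 0.42 in M and -0.73 in F at starts and 0.36 in M and -0.61 in F in gene windows. Integrins, adaptors and pan-leukocyte genes had 0.11 in M and -0.15 in F at starts. Monocyte and activation markers had -0.01 in M and 0.06 in F in gene windows.

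Of the 39 members, 19 were positive in both sexes and 5 negative in both at starts, against 13.2% and 20.1% of all coding genes. In gene windows these were 15 and 2, against 18.2% and 19.3%. Examples at starts were Tmem119 (1.47 in M, -2.08 in F), Cd68 (0.42, -1.83), Mertk (0.17, -0.66), Sall1 (0.20, -0.43) and Cd86 (0.94, -0.30, from 6 fragments in all). Examples in gene windows were Ccr2 (-0.01 in M, 0.24 in F) and Ptprc (-0.20, 0.29), and other members had larger differences.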

How the results depend on the processing

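No member passed the adjusted threshold in limma under any of the 33 combinations of window and setting. The members' median log2 change stayed above 0 in all of them, from 0.01 (without uninjured M) to 0.54 (pseudocount 0.1) at starts and from 0.04 (pseudocount 2) to 0.18 (pseudocount 0.1) in gene windows, and it lay above the all-gene median each time. Of 458 recomputed changes of named genes, 441 kept their sign and 17 did not, 11 of these with a library left out. Single-fragment steps and 2 libraries per condition limit the precision. The cause of the differences listed here was not tested.

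Counts of coding genes called higher at starts, 0 as reported, were 2 when centred on the median gene, 1 with a filter on the mean value (30 members left) and 1 after thinning to the smallest library. In gene windows, with 1 called higher and 0 lower, trimmed mean scaling gave 8 and 4 and the filter (24 members left) 35 and 6. No gene was called higher (0) when centred, with all 8 libraries, after thinning, without flanks or without start windows. With a library left out, 0 to 13 were higher and 0 to 4 lower. Members with both 1 dpi libraries below at starts, 3 as reported, were 5 with trimmed mean scaling (13.2% of all genes), 1 of 30 with the filter (14.6%), 5 of 38 after thinning (12.96%) and 5 to 12 with a library left out (23.0% to 57.7%), when 13 to 22 lay above (12.8% to 46.1%). In gene windows, members above were 6 of 24 with the filter (10.6% of all genes) and 15 to 23 with a library left out (24.2% to 41.4%), and members below were 0 when centred (14.1%), 4 after thinning (13.9%), 4 without start windows (15.8%) and 4 to 9 with a library left out (26.0% to 46.9%). The members' mean at 1 dpi was 3.31 (starts) and 2.01 (gene windows) on a library mean without the top bins, and 3.62 and 2.43 in start windows of 500 bp and 2 kb to each side. For the 29 members with no other coding start, an alternative chosen after seeing the data, 6 starts lay above, 1 gene window lay below, and the means were 2.69 at 1 dpi starts and 1.29 and 1.44 in uninjured and 1 dpi gene windows.

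The log2 changes that switched sign were Tmem119 at its start (0.41 after thinning, 0.44 with 2 kb to each side), Cd86 (-0.06) and Cx3cr1 (-0.28) with 500 bp to each side, P2ry12 at its best covered coding start (1.53), and the gene window of Ccr2 after thinning (-0.24). With each library left out in turn, start changes ranged from -1.51 to 0.90 for Tmem119, -1.49 to 0.07 for Cd68, -0.83 to 0.34 for Mertk, -0.29 to 0.06 for Sall1, -0.15 to 0.80 for Cd86 and -0.06 to 0.94 for Ccr2, and gene-window changes from -0.05 to 0.28 for Ccr2 and -0.12 to 0.21 for Ptprc. Other moves of over 1.5 times include Fcgr3 (0.54), Spi1 (0.79), Ptprc (0.27), P2ry12 (-0.86), Sall1 (-0.19) and Tmem119 (-1.12) at starts with 500 bp to each side, Cd68 (-0.28), P2ry12 (-0.63), Mertk (-0.13), Sall1 (-0.17) and Cd86 (0.09) with 2 kb, Mertk (-0.07) and Sall1 (-0.29) after thinning, and the gene window of Spi1 (-0.21 without start windows, -0.13 without flanks, -0.04 after thinning) and of Ccr2 (0.24 without flanks). A pseudocount of 2 brought the start change of Trem2 to 0.80, of C1qa to 0.83, of Itgam to 0.74 and of P2ry12 to -0.52, and the gene-window change of Trem2 to 0.25, of Itgam to 0.20 and of C1qb to -0.30. A pseudocount of 0.1 moved them the other way. It gave 2.91, 1.92, 1.97 and -2.74 for these starts, and 0.69, 0.65 and -0.69 for these gene windows.

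M and F are not the same animals in the 2 conditions, so each letter stands for a shared sex and not for a shared animal. With M or F as a replicate block, 0 coding genes were called at starts and 19 higher and 4 lower in gene windows, 0 of them members, and the counts of members above and below and their log2 changes were unchanged. At an unadjusted p under 0.05 limma then gave 1 member higher (Trem2) and 1 lower (Ly6c2) at starts, against 3 and 2 without the block, and 5 higher (Itgam, Lyz2, Siglech, Tlr2 and Trem2) and 1 lower (C1qb) in gene windows, against 2 and 1. Over all genes it gave 169 and 188 of 21239 at starts and 442 and 211 of 21755 in gene windows.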
